A study of Mus musculus with 12 samples.

Results

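The genes described here are the ligands, receptors and TRAF adaptor proteins of the tumor necrosis factor (TNF) superfamily as measured in a pair of immortalized lines from mouse striatum, STHdhQ7 and STHdhQ111. They were taken by name: every gene called Tnfsf or Tnfrsf with a number, together with Tnf, Lta, Ltb, Ltbr, Fas, Fasl, Cd40 and Traf1 to Traf6. This gave 43 of the 29428 genes in the expression table. They are 14 ligands, 5 receptors with a death domain, 4 decoy or soluble receptors, 13 other receptors that signal through TRAF proteins, 6 TRAF adaptors and Tnfsf13os, an antisense RNA that the name rule takes in. STHdhQ7 cells (STHdhQ7/Q7) carry huntingtin with 7 glutamine repeats and STHdhQ111 cells (STHdhQ111/Q111) carry the Huntington's disease form with 111 repeats. For RNA-seq, each line was either left nontreated (group names ending in C) or kept for 24 h with 100 ng/mL IFNγ plus 5 μg/mL LPS (group names ending in T). Each of the 4 groups, Q7-C, Q7-T, Q111-C and Q111-T, has 3 libraries. Each genotype is represented by 1 immortalized line, so the huntingtin allele and any other difference between the lines cannot be told apart. The study calls the libraries of a group biological replicates, and the labels do not say whether they came from separate cultures. The p-values below measure the spread between these libraries.

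TNF family ligands are mostly made as membrane proteins that bind as trimers to receptors on the same or on neighbouring cells. Receptors with a death domain can start apoptosis through FADD and caspase-8, whereas the others recruit TRAF proteins, which lead to NF-κB and MAP kinases, and decoy or soluble receptors bind ligands without passing on the full signal. In the brain, microglia are a main source of Tnf during inflammation, and IFNγ and LPS are known to induce several members in many cell types.

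The libraries hold between 57505990 and 96417834 estimated counts, and 1 read pair appears to stand for about 4 counts. A gene with at most 12 counts in every library of a group is called not detected there. Levels are given in TPM, which is scaled for transcript length and library total, in the order of replicates 1, 2 and 3, and log2 fold changes are from edgeR with their SE. The TPM scale and the edgeR scale are shifted against each other. The median gene differed by 0.27 on the log2(TPM + 0.5) scale between Q111-C and Q7-C, by 0.34 between Q111-T and Q7-T, by -0.16 for the response of STHdhQ7 cells and by -0.10 for that of STHdhQ111 cells, whereas the edgeR medians were near 0, so TPM values are to be read relative to these shifts. Of the 12 libraries, 11 were most like a library of their own group, and the exception was Q7-T replicate 2, which was nearest to Q7-C replicate 1. Q7-C replicate 1 and Q111-T replicate 2 also stood apart. Within Q7-C, chi-square per degree of freedom (counts divided by 4) was 85.5 and 120 for pairs with replicate 1, against 11.1 otherwise. In Q7-T it was 190 and 198 for pairs with replicate 2, against 15.0. In Q111-T it was 54.3 and 48.0 for pairs with replicate 2, against 9.57. Deviations of these libraries from their group means correlated at 0.33 to 0.64. The cause was not tested. The lines are labelled as striatal neuronal, but the neuronal genes Syt1, Snap25, Gad1, Gad2 and Bcl11b did not exceed 0.432 TPM in any library. Other neuronal markers were present, with Stmn2 between 69.6 and 82 TPM in STHdhQ7 and between 1.14 and 2.77 TPM in STHdhQ111 libraries, Tubb3 between 16.2 and 83.6 TPM and between 2.56 and 26.6 TPM, Map2 between 0.604 and 10.7 TPM in all libraries, and Penk between 1.47 and 5.42 TPM in STHdhQ111 libraries but at most 0.429 TPM in STHdhQ7. Of 14 neuronal markers, 10 were read from the table and summed to between 94.7 and 105 TPM in Q7-C, 132 and 168 TPM in Q7-T, 16.5 and 20.2 TPM in Q111-C and 33.2 and 37.5 TPM in Q111-T. The 7 astrocyte markers summed to between 1.77 and 3.78 TPM in STHdhQ7 and between 26.2 and 34.4 TPM in Q111-C and between 8.1 and 9.82 TPM in Q111-T libraries. Nearly all of the Q111-C sum came from Sox9 (17.2 to 23.45 TPM) and Slc1a3 (8.60 to 10.55 TPM). Gfap, Aqp4, Slc1a2 and Aldh1l1 were at most 0.115 TPM in Q111-C. The 8 mesenchymal markers summed to between 4244 and 4839 TPM in Q7-C, to between 3286 and 3715 TPM in Q7-T, to between 3693 and 3851 TPM in Q111-C and to between 1509 and 1633 TPM in Q111-T, with Vim between 1147 and 2651 TPM. Single markers differed in opposite directions between the nontreated lines. Acta2 was at 1605 to 1792 TPM in Q7-C and 24.6 to 56.0 TPM in Q111-C. Col1a1, Col1a2, Col3a1, Pdgfra and Pdgfrb were higher in Q111-C, with Col1a1 at 779 to 807 TPM against 245 to 300 TPM in Q7-C. Of 10 microglial or macrophage markers, 7 were read from the table. Their summed level was between 17.8 and 20.6 TPM in Q7-C, 11.9 and 18.2 TPM in Q7-T, 31.9 and 37.0 TPM in Q111-C and 46.0 and 62.5 TPM in Q111-T, nearly all of it from Cd68 and Tmem119. The defining leukocyte gene Ptprc was at 0.00642 TPM or less and Adgre1 at 0.0463 TPM or less. Of 8 lymphocyte markers, 2 were read from the table and summed to at most 0.222 TPM. The part of these shifts in marker levels in the results below was not tested.

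Of the 43 members, 33 reached 0.5 TPM in at least 3 libraries and were tested together with the other genes of the table, 16127 in all. A gene is called where the adjusted p was under 0.05 and the change at least 2-fold. Of these members, 19 were called in at least 1 comparison, and their levels are shown in the plot of TPM per library. The share of all genes called in at least 1 comparison was not worked out, so the 19 are a list only. The filter kept all 5 death-domain receptors, all 4 decoy or soluble receptors and all 6 TRAFs but 11 of 13 other receptors and 6 of 14 ligands. A member that passes the filter only through libraries in which it is high is bound to differ. Tnfsf10, Tnfsf11, Tnfsf15 and Tnfrsf26 reached 0.5 TPM only in Q111-T, Cd40 and Tnfrsf14 only in treated and Tnfrsf11a and Tnfsf13os only in STHdhQ111 libraries. The counts, shares and medians over tested members below include these genes and are given as descriptions. Shares over all genes are given for calls, and were not worked out for counts at an adjusted or unadjusted p alone.

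**Figure D1:**
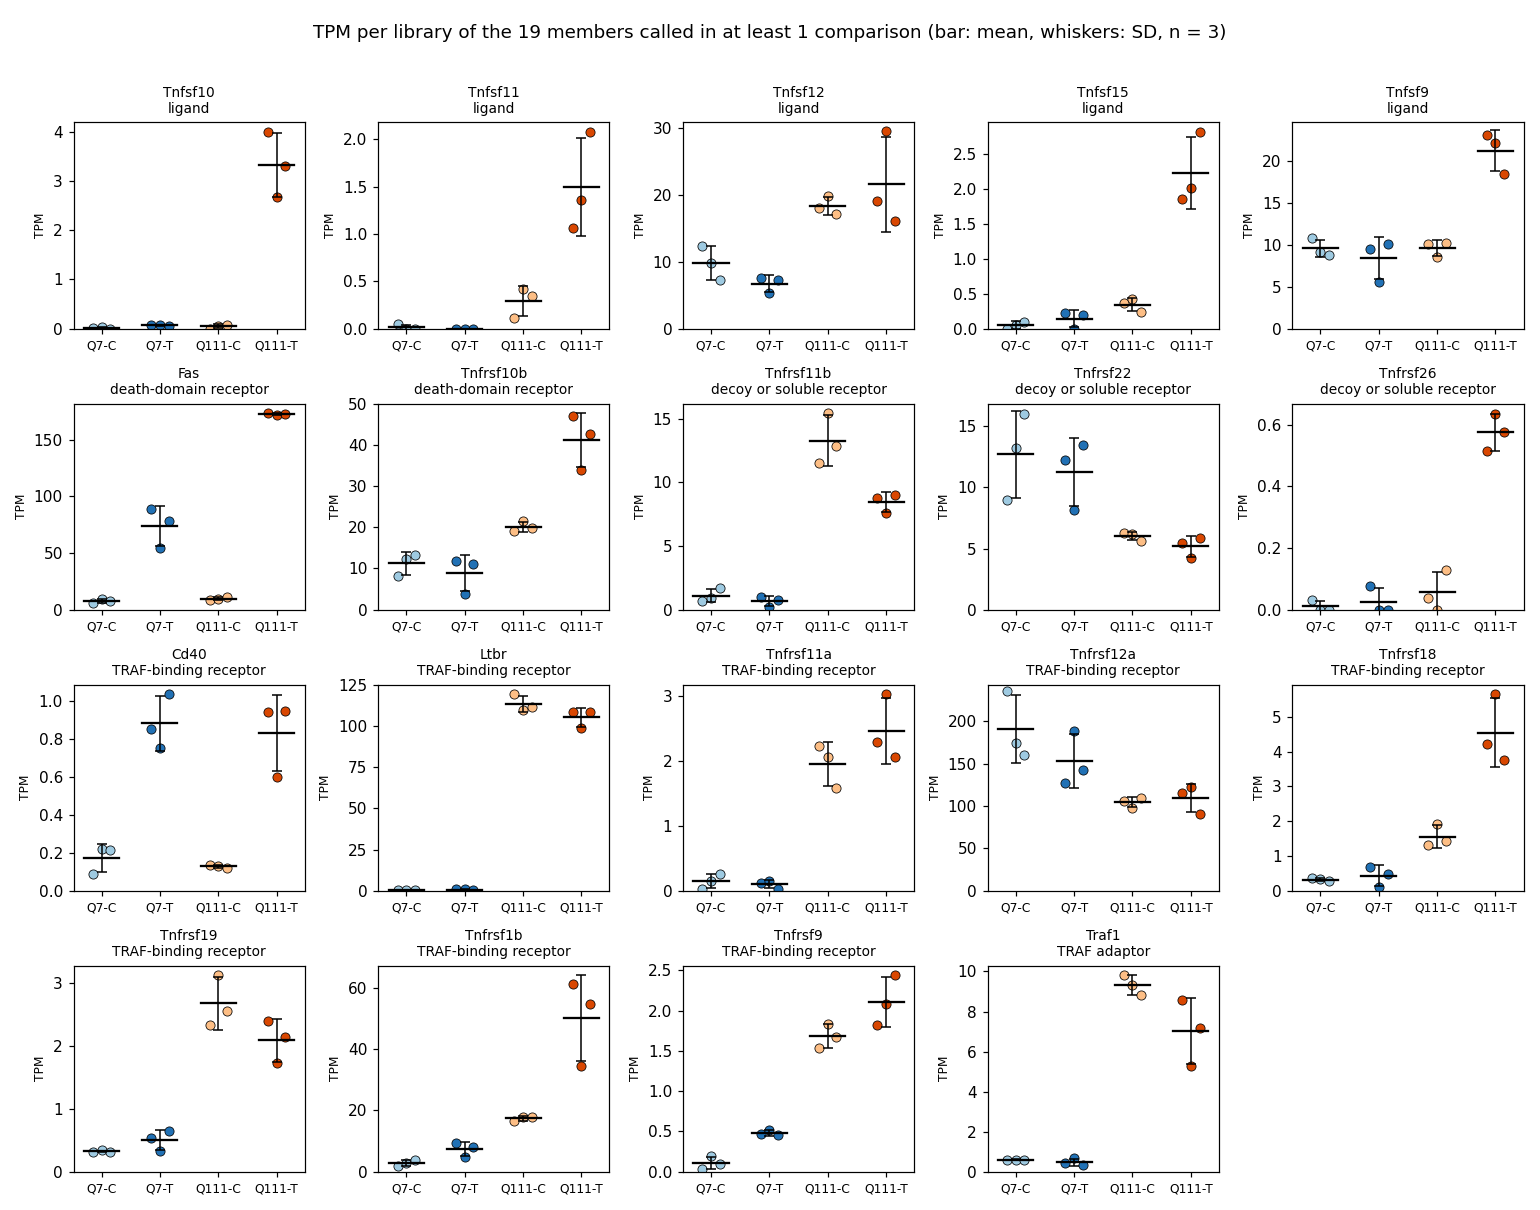
TPM (linear axis from 0) in each library of the 19 members called in at least 1 comparison, 1 panel per gene, with the 3 libraries of Q7-C, Q7-T, Q111-C and Q111-T as points, the mean as a bar and the SD as whiskers. Fas and Cd40 rose after treatment in both lines, whereas Ltbr, Traf1, Tnfrsf11a, Tnfrsf11b and Tnfrsf19 were higher in both STHdhQ111 groups.

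Which members respond to the inflammatory challenge in the line with normal huntingtin was asked by comparing Q7-T with Q7-C. Fas, the death receptor for Fas ligand, rose 10.7-fold (log2 fold change 3.42 ± 0.16, adjusted p = 2.07e-07). A further 3 receptors rose, all of the TRAF-binding kind, namely Cd40 (log2 fold change 2.56 ± 0.35, adjusted p = 0.000733), Tnfrsf9 (log2 fold change 2.42 ± 0.46, adjusted p = 0.00816) and Tnfrsf1b (log2 fold change 1.56 ± 0.18, adjusted p = 0.000216). These 4 are 12.1% of the members tested, against 2.93% of all tested genes called higher, and 1 of them (Cd40) passed the filter through treated libraries only. Of the 33 members, 0 were called lower in edgeR, 0 were lower at an unadjusted p under 0.05 and 0 were called lower by DESeq2, against 1.11% of all genes. The median log2 fold change of the members tested was 0.40, or 0.23 with the 4 genes not detected in a group set at their lower bound, and that of all tested genes was 0.0033. None of the 6 ligands tested was called, and none of the 6 TRAFs. At an unadjusted p under 0.05 Traf2 and Traf4 were higher, and DESeq2 called no ligand or TRAF either. Tnfrsf1a was just under 2-fold (log2 fold change 0.98 ± 0.14, adjusted p = 0.00123). Tnfrsf9 kept its call in each leave-one-out fit, but not on log2(TPM + 0.5) (log2 difference 0.69, adjusted p = 0.0418, limma), on log2(TPM + 1) (0.42, adjusted p = 0.0937, limma) or in a fit of these 6 libraries alone (log2 fold change 2.43, adjusted p = 0.164, edgeR), the highest adjusted p over the alternatives. Without Q7-T replicate 2, 5 members rose.

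In STHdhQ111 cells, compared as Q111-T with Q111-C, 7 members rose. Fas again changed most among the called receptors (18.8-fold, log2 fold change 4.23 ± 0.17, adjusted p = 7.97e-08). Cd40 (log2 fold change 2.73 ± 0.35, adjusted p = 0.000223) and Tnfrsf1b (log2 fold change 1.60 ± 0.18, adjusted p = 7.43e-05) rose here as well. Tnfrsf18, also known as GITR, rose (log2 fold change 1.66 ± 0.44, adjusted p = 0.0225), as did the TRAIL receptor Tnfrsf10b (log2 fold change 1.12 ± 0.21, adjusted p = 0.00257). Its ligand Tnfsf10, or TRAIL, rose (log2 fold change 6.21 ± 1.01, adjusted p = 0.00107), and so did Tnfsf9, the ligand of Tnfrsf9 (log2 fold change 1.25 ± 0.24, adjusted p = 0.00343). They are 21.2% of the members tested, beside 8.28% of all tested genes called higher, and 2 (Cd40 and Tnfsf10) passed the filter through treated libraries only. Of the 33 members, 0 were called lower by edgeR or by DESeq2, against 2.96% of all genes, and 1 (Tnfrsf21) was lower at an unadjusted p under 0.05. The median log2 fold change was 0.43 for the members and -0.0050 for all genes. The call of Tnfrsf18 was lost when Q111-C replicate 1, 2 or 3 or Q111-T replicate 2 was left out (log2 fold change 1.33 to 1.80 over the leave-one-out fits, adjusted p at most 0.0989), and that of Tnfrsf10b on the log2(TPM + 0.5) scale. Without Q7-T replicate 2, which enters only through the shared fit here, 10 members were called.

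**Figure D2:**
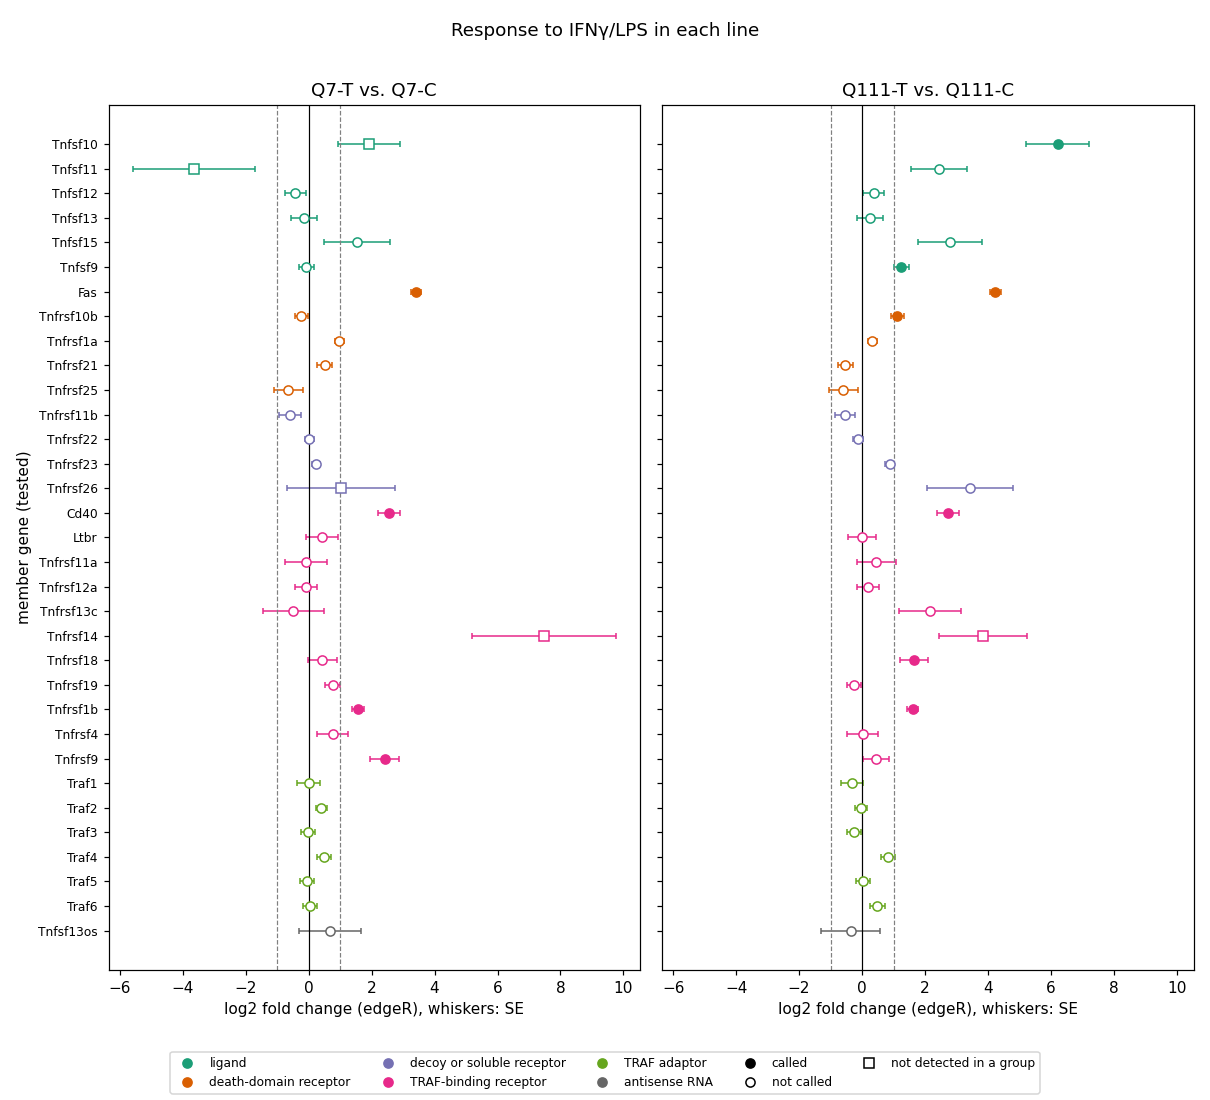
Log2 fold change (edgeR) after IFNγ/LPS of the 33 members tested, in STHdhQ7 cells on the left and in STHdhQ111 cells on the right, with the SE as whiskers, the role as colour, dashed lines at 2-fold and filled symbols for called members. Squares mark genes not detected in a group of the comparison, whose fitted value is no estimate. Filled symbols number 4 on the left and 7 on the right, all above 0.

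Whether both lines respond alike was tested on the difference of the responses (the interaction), that of STHdhQ111 minus that of STHdhQ7 cells. Tnfrsf10b (log2 difference 1.36 ± 0.29, adjusted p = 0.0186) and Tnfsf9 (log2 difference 1.32 ± 0.34, adjusted p = 0.043) were called, both with the larger response in STHdhQ111 cells. They are 6.06% of the members tested, against 3.52% of all tested genes called in that direction. Fas passed the adjusted p with a difference under 2-fold (log2 difference 0.82 ± 0.21, adjusted p = 0.0453). In the other direction 0 members were called, against 1.2% of all genes. At an unadjusted p under 0.05 there were 4 (Tnfrsf1a, Tnfrsf21, Tnfrsf19 and Tnfrsf9), and DESeq2 called 3 (Tnfrsf19, Tnfrsf9 and Tnfrsf21). Both calls depend on single libraries. That of Tnfrsf10b was lost without Q7-C replicate 2 or 3, any of the Q111-C libraries or Q111-T replicate 1 (log2 difference 1.11 to 1.49, adjusted p at most 0.0631) and on the TPM scales. That of Tnfsf9 was lost without each library other than Q7-C replicate 3 and Q7-T replicate 2 (log2 difference 1.04 to 1.46, adjusted p at most 0.124). It was also lost in edgeR with upper-quartile factors, without the filter and with a replicate block (adjusted p at most 0.0826).

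Nontreated cells of the 2 lines were compared as Q111-C with Q7-C. The lymphotoxin β receptor Ltbr differed most (161-fold higher in Q111-C, log2 fold change 7.33 ± 0.60, adjusted p = 5.83e-06). The adaptor Traf1 and the receptors Tnfrsf9, Tnfrsf11a, Tnfrsf11b, Tnfrsf19, Tnfrsf1b and Tnfrsf18 were also higher, as was the ligand Tnfsf11, which gives 9 members higher in Q111-C. Tnfrsf22, a decoy receptor for TRAIL, and Tnfrsf12a, the receptor of Tnfsf12, were lower. Members called higher were 27.3% of those tested, against 7.62% of all tested genes, and members called lower were 6.06%, against 7.61%. Of the 9 called higher, 2 (Tnfrsf11a and Tnfsf11) passed the filter through STHdhQ111 libraries only. At an adjusted p under 0.05 without regard to size, 11 members were higher and 4 lower (Traf5, Tnfrsf12a, Tnfrsf22 and Tnfrsf23). At an unadjusted p under 0.05 there were 14 and 4. No share over all genes was worked out for these counts. The median log2 fold change was 0.54 for the members, or 0.45 with the 4 genes not detected in a group at their lower bound, and -0.02 for all genes. Both lower calls depend on the scale. The call of Tnfrsf12a was lost on all 3 log2(TPM) scales, and that of Tnfrsf22 was lost with 0.5 or 1 added to the TPM and kept with 0.1 added. On log2(TPM + 0.5) there were 9 members higher and 0 lower, and over all genes 1489 were higher and 767 lower, whereas edgeR called 1229 and 1227.

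After treatment, compared as Q111-T with Q7-T, 14 members were higher and 1 lower. The same comparison of nontreated cells shares no library with it, but it is of the same lines and from the same fit. Of the 9 members higher in Q111-C, all 9 were called higher here too, and Tnfrsf22 was lower again. How often other genes were called in both comparisons was not worked out, so this count is a description only. Tnfsf10, Tnfsf12, Tnfsf15, Tnfrsf10b and Tnfrsf26 were called higher between the treated lines and had not been called between the nontreated lines. Members called higher were 42.4% of those tested, against 13.3% of all tested genes, and the single one called lower was 3.03%, against 11.2%. Of the 14 called higher, 5 (Tnfrsf11a, Tnfrsf26, Tnfsf10, Tnfsf11 and Tnfsf15) passed the filter through STHdhQ111 libraries only, so that share holds members that were tested because they were high there. At an adjusted p under 0.05 without regard to size, 18 members were higher and 4 lower (Traf2, Traf5, Tnfrsf12a and Tnfrsf22). At an unadjusted p under 0.05 there were 18 and 5, with Traf3 also lower. No share over all genes was worked out for these counts. The median log2 fold change was 0.98 for the members and -0.03 for all genes. On log2(TPM + 0.5) 19 members were higher and 1 lower, and over all genes 2940 were higher and 777 lower, whereas edgeR called 2145 and 1814. Without Q7-T replicate 2, 13 members were higher and 1 lower.

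**Figure D3:**
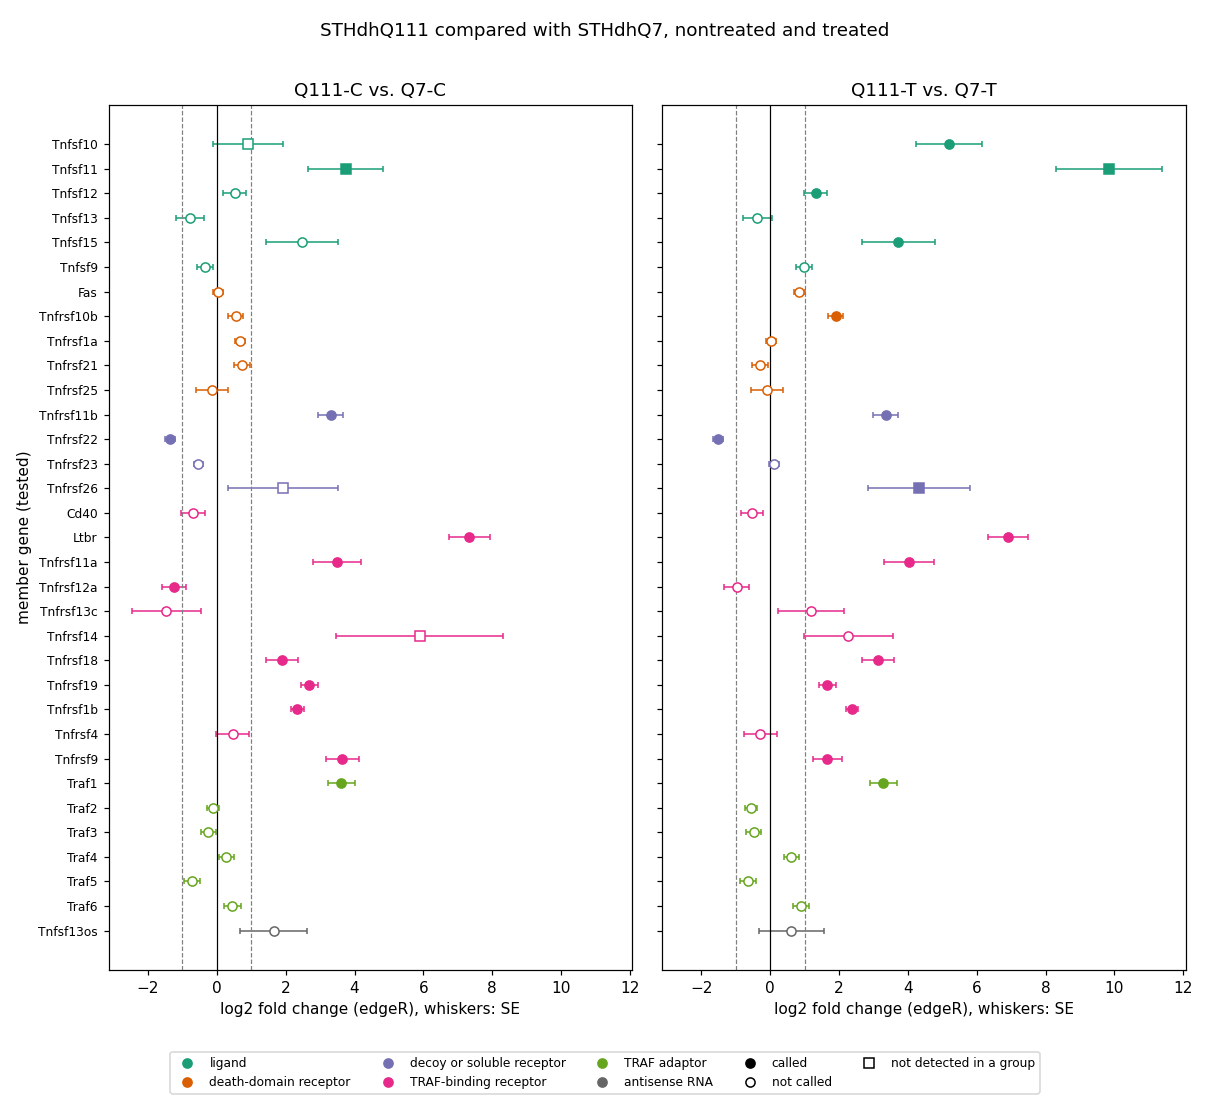
Log2 fold change (edgeR) of STHdhQ111 against STHdhQ7 for the 33 members tested, nontreated on the left and after IFNγ/LPS on the right, with the SE as whiskers, the role as colour, dashed lines at 2-fold and filled symbols for called members. Squares mark genes not detected in a group, whose fitted value is no estimate. Ltbr lies near 7 in both panels, and filled symbols number 11 on the left and 15 on the right.

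Among the ligands, Tnfsf10 encodes TRAIL, which can kill cells through Tnfrsf10b. It measured 0.0185, 0.0408 and 0 TPM in Q7-C, 0.0695, 0.0783 and 0.0447 TPM in Q7-T, 0, 0.0577 and 0.0791 TPM in Q111-C and 3.99, 2.68 and 3.31 TPM in Q111-T. The Q111-T libraries lay far above all others, which held at most 16 estimated counts each. Q111-T exceeded Q7-T as well (log2 fold change 5.20 ± 0.96, adjusted p = 0.00142). The difference between the responses, where Q7-C was under the detection floor, was not called (adjusted p = 0.102). DESeq2 and limma on log2(TPM + 0.5) did call it.

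Tnfsf9, or 4-1BB ligand, is a costimulatory ligand. It measured 10.8, 9.17 and 8.78 TPM in Q7-C, 9.51, 5.55 and 10.2 TPM in Q7-T, 10.1, 8.52 and 10.2 TPM in Q111-C and 23.1, 22.1 and 18.5 TPM in Q111-T. Only the Q111-T libraries stood apart. Q111-T was just under 2-fold above Q7-T in edgeR (log2 fold change 0.98 ± 0.24, adjusted p = 0.0079) and was called higher on log2(TPM + 0.5).

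Tnfsf11 is RANKL, the ligand that drives osteoclast formation through Tnfrsf11a, and Tnfrsf11b, or osteoprotegerin, is its soluble decoy. Tnfsf11 measured 0.0462, 0 and 0 TPM in Q7-C and had a value of 0 in each Q7-T library. It measured 0.114, 0.419 and 0.349 TPM in Q111-C and 1.07, 1.36 and 2.08 TPM in Q111-T. With both STHdhQ7 groups under the detection floor, Q111-T was at least 8-fold above Q7-T and Q111-C at least 1.7-fold above Q7-C (adjusted p = 0.000969 and 0.0354). The 3 Q111-T libraries also lay above the 3 of Q111-C, but this response was not called in the main edgeR fit (log2 fold change 2.44 ± 0.88, adjusted p = 0.0907). DESeq2, limma on log2(TPM + 0.5) and edgeR on counts divided by 4 or on these libraries alone called it. The call between nontreated lines was lost when Q7-C replicate 2 or 3, Q111-C replicate 2 or 3, or any Q111-T library was left out (adjusted p at most 0.0972) and in 5 of 11 other alternatives.

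Tnfsf15, or TL1A, is a ligand of the death receptor Tnfrsf25. It measured 0, 0.0555 and 0.103 TPM in Q7-C, 0.229, 0 and 0.201 TPM in Q7-T, 0.372, 0.42 and 0.236 TPM in Q111-C and 1.85, 2.02 and 2.82 TPM in Q111-T. The 4 groups overlapped only between Q7-C and Q7-T. Q111-T was called higher than Q7-T (log2 fold change 3.72 ± 1.06, adjusted p = 0.0168). The response of STHdhQ111 cells was not called (log2 fold change 2.79 ± 1.01, adjusted p = 0.0815), although limma on log2(TPM + 0.5) and DESeq2 called it.

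Tnfsf12, or TWEAK, binds Tnfrsf12a. It measured 12.4, 9.85 and 7.31 TPM in Q7-C, 7.55, 5.35 and 7.3 TPM in Q7-T, 18.1, 19.8 and 17.1 TPM in Q111-C and 19.1, 29.6 and 16.1 TPM in Q111-T. Its TPM was higher in each STHdhQ111 library than in any STHdhQ7 library, but only Q111-T against Q7-T was called (log2 fold change 1.31 ± 0.34, adjusted p = 0.0108), and without Q111-T replicate 2, its highest library, the log2 fold change was 0.91. Tnfsf12 and Tnfsf13 share exons with the read-through gene Tnfsfm13 on the same strand, so their counts are uncertain. Tnfsf13, or APRIL, had group means between 0.776 and 1.05 TPM, and Tnfsf13os, which lies on the other strand, between 0.214 and 0.875 TPM. Neither was called in any of the 5 comparisons.

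The other 8 ligands did not reach the filter. Tnf, the founding member, held 37, 24 and 34 estimated counts in the Q111-T libraries (0.617, 0.44 and 0.74 TPM) and at most 4 counts in each of the other 9 libraries. Against the detection floor Q111-T was at least 3.02-fold above Q111-C and at least 2.33-fold above Q7-T. The exact permutation p was 0.1 in both cases, the smallest that 3 libraries against 3 can give. Fasl, the ligand of Fas, was above 0 in 5 libraries, with 44 counts (0.583 TPM) in Q7-T replicate 2 and at most 10 elsewhere. Lta, a lymphotoxin that signals through the TNF receptors, was above 0 in 8 libraries at up to 0.333 TPM. It was lower in each of the Q111-C libraries (0, 0.0755 and 0 TPM) than in any Q7-C library (0.272, 0.264 and 0.333 TPM), a difference of at least 1.48-fold. Ltb, the partner of lymphotoxin α in the heterotrimer that binds Ltbr, was above 0 in 3 libraries at up to 0.271 TPM. Tnfsf13b, or BAFF, was above 0 in all 12 libraries at up to 0.335 TPM. Tnfsf18, the ligand of Tnfrsf18, was above 0 in all 12 libraries at up to 0.799 TPM, and every STHdhQ111 library lay above every STHdhQ7 library of the same condition. Tnfsf4, or OX40 ligand, was above 0 only in the 3 Q111-T libraries, at up to 0.41 TPM. Tnfsf8, the ligand of Tnfrsf8, was above 0 in 1 library at 0.0289 TPM.

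Among the receptors with a death domain, Fas measured 5.95, 9.82 and 7.78 TPM in Q7-C and 88.8, 54.3 and 78.4 TPM in Q7-T. In STHdhQ111 cells it measured 8.87, 9.46 and 11.3 TPM without and 174, 172 and 173 TPM with treatment. Treated and nontreated libraries did not overlap in either line, the nontreated groups overlapped each other, and every Q111-T library lay above every Q7-T library. In Q111-T its mean of 173 ± 0.835 TPM (SD, n = 3) was the second highest of the members, and its libraries overlapped those of Tnfrsf1a, the highest. The difference between treated lines had a log2 fold change of 0.85 ± 0.15, adjusted p = 0.00107, under 2-fold in edgeR but over 2-fold on log2(TPM + 0.5), where it was called.

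Tnfrsf10b, the receptor of TRAIL, measured 8.18, 12.3 and 13.4 TPM in Q7-C, 11.7, 3.8 and 11.1 TPM in Q7-T, 19, 21.5 and 19.9 TPM in Q111-C and 47, 33.9 and 42.7 TPM in Q111-T. The STHdhQ7 groups overlapped, and the STHdhQ111 groups did not overlap each other or STHdhQ7. Q111-T was above Q7-T (log2 fold change 1.90 ± 0.21, adjusted p = 4.38e-05), whereas the difference between nontreated lines was not called (log2 fold change 0.54 ± 0.21, adjusted p = 0.0839).

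Tnfrsf1a, the main receptor of Tnf, had the highest mean of the members in both STHdhQ111 groups. Its group means went from 83.6 TPM in Q7-C to 198 TPM in Q111-T. Besides the response in STHdhQ7 cells, Q111-C lay under 2-fold above Q7-C in edgeR (log2 fold change 0.68 ± 0.14, adjusted p = 0.00454) but was called higher by limma on log2(TPM + 0.5) (log2 difference 1.01, adjusted p = 0.000633), and the treated lines gave no call (log2 fold change 0.02 ± 0.14, adjusted p = 0.921). Tnfrsf21, or death receptor 6, had group means between 1.02 and 2.09 TPM, and Tnfrsf25, the receptor of Tnfsf15, between 0.644 and 1.34 TPM. Neither was called by edgeR, and limma on log2(TPM + 0.1) called Tnfrsf21 higher in the nontreated STHdhQ111 line.

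Among decoy and soluble receptors, Tnfrsf11b measured 0.697, 0.927 and 1.68 TPM in Q7-C, 1.02, 0.219 and 0.795 TPM in Q7-T, 11.5, 15.4 and 12.9 TPM in Q111-C and 8.8, 7.56 and 9.02 TPM in Q111-T. The lines did not overlap in either condition (log2 fold change 3.30 ± 0.35, adjusted p = 4.31e-05 nontreated and 3.35 ± 0.36, adjusted p = 3.35e-05 treated). Within STHdhQ111 cells the treated libraries lay below the nontreated ones, but this was not called (log2 fold change -0.55 ± 0.32, adjusted p = 0.303).

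Tnfrsf22, Tnfrsf23 and Tnfrsf26 are similar decoy receptors that lie next to each other, so reads may be shared between them. Tnfrsf22 measured 8.95, 13.2 and 16 TPM in Q7-C, 12.2, 8.16 and 13.4 TPM in Q7-T, 6.24, 6.17 and 5.64 TPM in Q111-C and 5.48, 4.19 and 5.85 TPM in Q111-T. It was the only member called lower in STHdhQ111 cells in both conditions (log2 fold change -1.37 ± 0.15, adjusted p = 4.65e-05 and -1.52 ± 0.15, adjusted p = 1.81e-05). On log2(TPM + 0.5) only the treated difference was still called, and on log2(TPM + 1) neither was. Tnfrsf26 was at most 0.13 TPM in every library outside Q111-T, where it measured 0.514, 0.635 and 0.578 TPM, at least 4.48-fold above Q7-T (adjusted p = 0.0384). That call was lost without Q7-T replicate 2 or 3, Q111-C replicate 1 or any Q111-T library (adjusted p at most 0.0911). Tnfrsf23 had group means between 14.5 and 24.9 TPM and no call. Its response in STHdhQ111 cells was under 2-fold (log2 fold change 0.88 ± 0.14, adjusted p = 0.000794).

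Among the receptors that signal through TRAFs, Ltbr separated the lines. It measured 0.577, 0.723 and 0.342 TPM in Q7-C, 0.772, 0.863 and 0.198 TPM in Q7-T, 119, 110 and 112 TPM in Q111-C and 109, 98.7 and 109 TPM in Q111-T. The lines were far apart in both conditions, and treatment moved neither line past the test (log2 fold change 0.42 ± 0.51, adjusted p = 0.779 in STHdhQ7 and -0.01 ± 0.45, adjusted p = 0.996 in STHdhQ111 cells). The treated lines differed by 120-fold (log2 fold change 6.90 ± 0.59, adjusted p = 6.72e-06). Neighbouring genes were looked at after these values were seen. Between the nontreated lines the 5 other genes tested within 100 kb of Ltbr had log2 fold changes from 0.13 to 1.81 and adjusted p from 0.00454 to 0.747. The lowest p was that of Tnfrsf1a, 35.5 kb away, with a change under 2-fold. Between the treated lines Scnn1a (log2 fold change 3.28, adjusted p = 0.00808) and Plekhg6 (log2 fold change 2.34, adjusted p = 8.57e-05) were called higher in Q111-T.

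**Figure D4:**
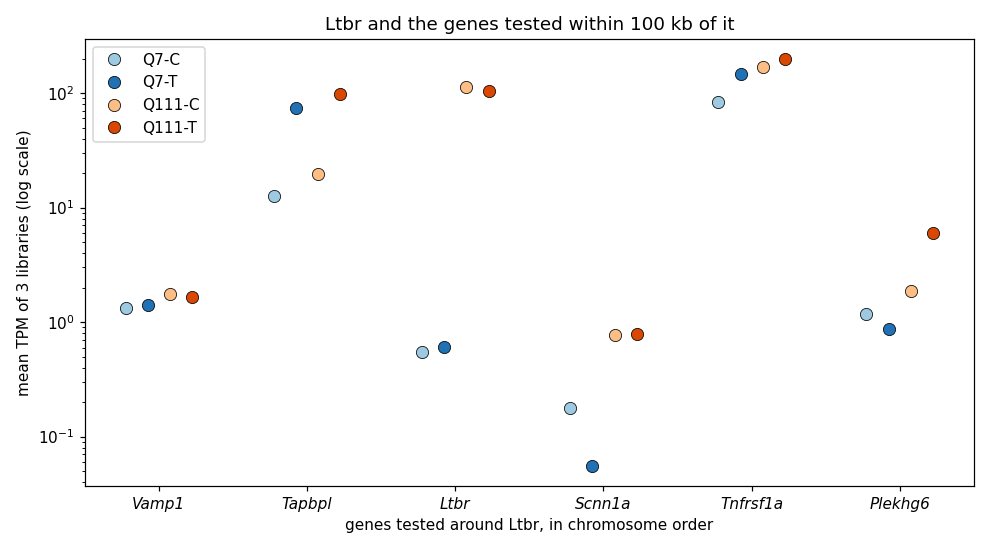
Mean TPM of 3 libraries (log axis) in Q7-C, Q7-T, Q111-C and Q111-T for Ltbr and the 5 other genes tested within 100 kb of it, in chromosome order. Ltbr lies under 1 TPM in both STHdhQ7 groups and above 100 TPM in both STHdhQ111 groups, and its neighbour Scnn1a is under 1 TPM in all 4 groups.

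Tnfrsf1b, the second Tnf receptor, was the single member called in all 4 comparisons between groups. It measured 1.86, 2.9 and 3.76 TPM in Q7-C, 9.41, 4.81 and 7.99 TPM in Q7-T, 16.6, 17.7 and 18 TPM in Q111-C and 61.3, 34.6 and 54.6 TPM in Q111-T. No groups overlapped. The 2 responses differed by less than the SE (log2 difference 0.04 ± 0.25, adjusted p = 0.958), and the lines differed by a log2 fold change of 2.33 ± 0.19, adjusted p = 4.66e-06 nontreated and of 2.38 ± 0.19, adjusted p = 3.52e-06 treated.

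Cd40, the receptor that T helper cells engage on antigen-presenting cells, stayed low. It measured 0.0897, 0.22 and 0.214 TPM in Q7-C, 0.855, 0.753 and 1.04 TPM in Q7-T, 0.136, 0.131 and 0.12 TPM in Q111-C and 0.944, 0.598 and 0.951 TPM in Q111-T. Treated and nontreated libraries did not overlap, whereas the lines overlapped in both conditions. The responses differed by 0.17 ± 0.46, adjusted p = 0.884 on the log2 scale, which is smaller than its SE.

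Tnfrsf9, or 4-1BB, measured 0.0379, 0.193 and 0.101 TPM in Q7-C, 0.471, 0.517 and 0.451 TPM in Q7-T, 1.54, 1.84 and 1.68 TPM in Q111-C and 1.82, 2.08 and 2.44 TPM in Q111-T. All treated STHdhQ7 libraries lay above the nontreated ones and below every STHdhQ111 library. The lines differed in both conditions (log2 fold change 3.65 ± 0.47, adjusted p = 0.000178 and 1.66 ± 0.43, adjusted p = 0.0103). STHdhQ111 cells showed no call after treatment (log2 fold change 0.43 ± 0.41, adjusted p = 0.568), and the interaction was not called (log2 difference -1.99 ± 0.61, adjusted p = 0.0867).

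Tnfrsf18 measured 0.354, 0.34 and 0.275 TPM in Q7-C, 0.695, 0.105 and 0.485 TPM in Q7-T, 1.3, 1.93 and 1.42 TPM in Q111-C and 4.22, 5.65 and 3.75 TPM in Q111-T. The 3 Q111-T libraries were the highest and the Q111-C libraries came next, with the STHdhQ7 groups overlapping below 1 TPM. The line difference was called in both conditions (log2 fold change 1.90 ± 0.46, adjusted p = 0.011 and 3.13 ± 0.48, adjusted p = 0.000403).

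Tnfrsf11a, or RANK, measured 0.0345, 0.15 and 0.253 TPM in Q7-C, 0.123, 0.155 and 0.0289 TPM in Q7-T, 2.22, 2.05 and 1.57 TPM in Q111-C and 2.28, 3.02 and 2.06 TPM in Q111-T. The lines did not overlap (log2 fold change 3.48 ± 0.70, adjusted p = 0.00355 and 4.03 ± 0.72, adjusted p = 0.0012). Tnfrsf19, or TROY, which is known from the developing nervous system, measured 0.313, 0.34 and 0.316 TPM in Q7-C, 0.535, 0.335 and 0.641 TPM in Q7-T, 2.33, 3.13 and 2.56 TPM in Q111-C and 2.39, 1.72 and 2.15 TPM in Q111-T. The lines did not overlap here either (log2 fold change 2.69 ± 0.25, adjusted p = 1.36e-05 and 1.66 ± 0.24, adjusted p = 0.000266).

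Tnfrsf12a, or Fn14, had the highest mean of the members in both STHdhQ7 groups, although in Q7-T its libraries overlapped those of Tnfrsf1a. It measured 236, 175 and 161 TPM in Q7-C, 127, 189 and 142 TPM in Q7-T, 106, 97.8 and 109 TPM in Q111-C and 116, 122 and 90.5 TPM in Q111-T. Q111-C was lower than Q7-C (log2 fold change -1.25 ± 0.36, adjusted p = 0.0274), and Q111-T against Q7-T was just under 2-fold (log2 fold change -0.98 ± 0.36, adjusted p = 0.0496), past it with upper-quartile factors. The first call was lost without Q7-C replicate 1 (its highest library), without any 1 of the Q111-C libraries (log2 fold change -1.40 to -0.85 over the leave-one-out fits, adjusted p at most 0.115) and on the log2(TPM + 0.5) scale.

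The other TRAF-binding receptors had no call in the main edgeR fit. Tnfrsf4, or OX40, had group means between 1.21 and 2.12 TPM, and Tnfrsf13c, the BAFF receptor, between 0.135 and 0.578 TPM. An edgeR fit of the Q111-T and Q111-C libraries alone called Tnfrsf13c higher in Q111-T (log2 fold change 2.16, adjusted p = 0.042). Tnfrsf14, or HVEM, was listed at 0 in all Q7-C libraries and had a mean of 2.26 TPM in Q111-T, where its libraries measured 3.65, 0.43 and 2.69 TPM. Against the floor Q111-T was at least 9.65-fold above Q111-C, without a call in the main edgeR fit (adjusted p = 0.0961). DESeq2, limma on log2(TPM + 0.5) and edgeR on counts divided by 4 or on these libraries alone called it. Tnfrsf14 had passed the filter through treated libraries only. DESeq2 also called it higher in Q7-T against Q7-C and in Q111-C against Q7-C, the latter with both groups under the floor, and limma on log2(TPM + 0.5) in Q111-T against Q7-T. Tnfrsf8, or CD30, was above 0 in 7 libraries at up to 0.166 TPM and Tnfrsf13b, or TACI, in 1 library at 0.0388 TPM.

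Of the TRAF adaptors, Traf1 was the one that was called. It measured 0.608, 0.605 and 0.572 TPM in Q7-C, 0.454, 0.672 and 0.33 TPM in Q7-T, 9.82, 9.32 and 8.83 TPM in Q111-C and 8.58, 5.3 and 7.17 TPM in Q111-T. The lines did not overlap (log2 fold change 3.61 ± 0.39, adjusted p = 4.52e-05 and 3.28 ± 0.39, adjusted p = 6.58e-05), and treatment gave no call in either line. Traf2, the adaptor of most TRAF-binding receptors, had group means between 20.1 and 24.2 TPM and lay under 2-fold lower in treated STHdhQ111 than in treated STHdhQ7 cells (log2 fold change -0.55 ± 0.18, adjusted p = 0.0306). Traf3, which holds back the noncanonical NF-κB pathway, had means between 9.06 and 11.4 TPM and Traf5 between 1.89 and 2.59 TPM. Traf5 was under 2-fold lower in STHdhQ111 cells, nontreated (log2 fold change -0.72 ± 0.23, adjusted p = 0.0417) and treated (log2 fold change -0.64 ± 0.23, adjusted p = 0.0449), and Traf3 did not pass the adjusted p (log2 fold change -0.48 ± 0.22, adjusted p = 0.0979 between treated lines). Traf4 had means from 31.7 to 79.8 TPM, with a response under 2-fold in STHdhQ111 cells (log2 fold change 0.83 ± 0.22, adjusted p = 0.0207). Traf6, which also serves Toll-like receptors, had means from 5.75 to 13.5 TPM and lay under 2-fold higher in treated STHdhQ111 than in treated STHdhQ7 cells (log2 fold change 0.89 ± 0.24, adjusted p = 0.0119). On log2(TPM + 0.5), Traf4 and Traf6 were called in this comparison.

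The promoters of 3 receptors that the results turn on are shown, Fas and Tnfrsf1b as members that rose in both lines and Ltbr as the member that differed most between the nontreated lines. On GRCm38, the gene Fas spans chr19:34290666-34327772 (plus strand), Tnfrsf1b chr4:145213463-145246870 (minus strand) and Ltbr chr6:125306571-125313885 (minus strand). Each is the 250 bases before the start site in the RefSeq promoter table (build GRCm38.p6), written 5′ to 3′ on the strand of the gene. Capitals mark matches on either strand to the consensus κB site of NF-κB or to the core of the interferon-stimulated response element, ISRE (GAAANNGAAA).
Fas (chr19:34290409-34290658, plus strand): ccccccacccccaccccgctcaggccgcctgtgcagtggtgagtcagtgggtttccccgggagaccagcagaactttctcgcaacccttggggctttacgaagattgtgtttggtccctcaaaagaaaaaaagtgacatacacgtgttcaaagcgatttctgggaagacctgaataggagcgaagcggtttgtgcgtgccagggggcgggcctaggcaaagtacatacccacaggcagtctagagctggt
Tnfrsf1b (chr4:145246871-145247120, minus strand): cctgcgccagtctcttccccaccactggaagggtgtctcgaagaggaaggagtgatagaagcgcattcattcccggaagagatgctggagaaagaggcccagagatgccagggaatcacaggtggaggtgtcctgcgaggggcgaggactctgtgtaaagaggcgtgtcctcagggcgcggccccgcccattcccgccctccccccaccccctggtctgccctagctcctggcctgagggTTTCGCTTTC
Ltbr (chr6:125313886-125314135, minus strand): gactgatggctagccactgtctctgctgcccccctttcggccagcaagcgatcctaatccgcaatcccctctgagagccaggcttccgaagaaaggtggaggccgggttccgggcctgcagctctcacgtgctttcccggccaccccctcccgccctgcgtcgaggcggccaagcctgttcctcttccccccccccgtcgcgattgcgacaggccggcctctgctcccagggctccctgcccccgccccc
The Tnfrsf1b run holds an ISRE core, which starts at position -10 from the start site. No match to either motif lies in the Fas and Ltbr runs. The table held 38 windows of 300 bases, 50 of them after the start site, for 34 of the 43 members. Cd40, Tnfrsf10b, Tnfrsf11b, Tnfrsf22, Tnfrsf26, Tnfsf4, Tnfsf9, Tnfsf12 and Tnfsf13os were not matched. Of these windows, 3 held an ISRE core (7.89%, against 3.44% of all 32851 windows) and 4 held the consensus κB site (10.5% against 4.51%). Overlapping matches were counted once per window. These are descriptions of letters and not of binding.

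The wider pathway was described from 3 lists. Of 9 family genes with other names, 4 were tested. In Q111-T against Q111-C, 2 rose, where 8.28% of all genes did. Eda2r, the receptor of an ectodysplasin isoform, went from a mean of 4.96 to 48.8 TPM (log2 fold change 3.39 ± 0.36, adjusted p = 4.42e-05), and Relt rose as well (log2 fold change 1.26 ± 0.20, adjusted p = 0.000978). Both responses exceeded those of STHdhQ7 cells in the interaction, in which 3.52% of all genes were called in that direction (log2 difference 3.04 ± 0.47, adjusted p = 0.00353 and 1.34 ± 0.28, adjusted p = 0.0173). In Q7-T against Q7-C, 0 of the 4 were called by edgeR and 0 had an unadjusted p under 0.05. Of all genes, 2.93% were called higher and 1.11% lower there, so 0 of 4 is near these shares. The ligand Eda, which passed the filter through STHdhQ111 libraries only, had means of 0.00786, 0.0221, 3.01 and 1.42 TPM in Q7-C, Q7-T, Q111-C and Q111-T.

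Of 22 genes that act close to the receptors, all were tested. Of all genes, the shares called higher were 2.93% and 8.28% for the responses of STHdhQ7 and STHdhQ111 cells and 7.62% and 13.3% between nontreated and treated lines, and the shares called lower between the lines were 7.61% and 11.2%. In STHdhQ7 cells 2 rose, Rnf31, a subunit of the linear ubiquitin ligase (log2 fold change 1.26 ± 0.18, adjusted p = 0.00115), and Traf3ip2 (log2 fold change 1.49 ± 0.15, adjusted p = 7.25e-05). In STHdhQ111 cells 2 rose, Birc3, which encodes the ubiquitin ligase cIAP2 (log2 fold change 1.77 ± 0.45, adjusted p = 0.0174), and Edaradd, an adaptor of the ectodysplasin receptor (log2 fold change 1.68 ± 0.42, adjusted p = 0.0151). Under 2-fold, 5 genes were higher and 1 lower there at an adjusted p under 0.05, and 1 was higher in STHdhQ7 cells. The 5 include Rnf31 (log2 fold change 0.68 ± 0.18, adjusted p = 0.0215) and Traf3ip2 (log2 fold change 0.78 ± 0.15, adjusted p = 0.00336). In the interaction 0 of the 22 were called, against 3.52% of all genes in 1 direction and 1.2% in the other. Birc3 was also higher in STHdhQ111 than in STHdhQ7 cells, both nontreated (log2 fold change 4.25 ± 0.51, adjusted p = 0.000105) and treated (log2 fold change 5.85 ± 0.55, adjusted p = 1.39e-05), with group means of 0.199, 0.201, 4.58 and 14.7 TPM in Q7-C, Q7-T, Q111-C and Q111-T, and it passed the filter through STHdhQ111 libraries only. Between the lines, 1 gene was higher and 1 lower (Edaradd) without treatment, and 3 were higher (Birc3, Ikbkg and Tank) and 1 lower (Edaradd) with it. The median log2 fold change of the list was 0.10 for the response of STHdhQ7 cells, 0.48 for that of STHdhQ111 cells, 0.12 between nontreated and 0.44 between treated lines, where the medians of all genes were 0.0033, -0.0050, -0.02 and -0.03.

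Of 13 feedback inhibitors and NF-κB genes, 4 rose in STHdhQ7 cells (Bcl3, Nfkbia, Tnfaip3 and Nfkb1) and 2 in STHdhQ111 cells (Tnfaip3 and Nfkbia), beside 2.93% and 8.28% of all genes. A further 2 in STHdhQ7 (Tnip1 and Relb) and 6 in STHdhQ111 cells (Nfkbie, Nfkb1, Nfkb2, Rela, Relb and Bcl3) had an adjusted p under 0.05 with an increase under 2-fold, and at an unadjusted p under 0.05 there were 7 and 11 genes higher. Tnfaip3 encodes A20, which shuts off signals from TNF receptors. It rose in STHdhQ7 (log2 fold change 1.40 ± 0.34, adjusted p = 0.0345) and in STHdhQ111 cells (log2 fold change 2.81 ± 0.35, adjusted p = 0.000178). Nfkbia, the inhibitor IκBα, went from 34.8 to 94.7 TPM in STHdhQ7 and from 57.2 to 285 TPM in STHdhQ111 cells (log2 fold change 1.52 ± 0.23, adjusted p = 0.00169 and 2.43 ± 0.24, adjusted p = 2.43e-05). Bcl3, a nuclear IκB protein, had the larger response in STHdhQ7 cells (log2 difference -1.98 ± 0.36, adjusted p = 0.00898) and was higher in nontreated STHdhQ111 than in nontreated STHdhQ7 cells (log2 fold change 2.11 ± 0.27, adjusted p = 0.000145). Of the list, 1 gene was higher between nontreated lines (Bcl3) and 3 between treated lines (Tnfaip3, Nfkbia and Rel), beside 7.62% and 13.3% of all genes. The median log2 fold change of the list was 0.36 for the response of STHdhQ7 cells and 0.81 for that of STHdhQ111 cells, beside 0.0033 and -0.0050 for all genes. Whether changes in the numbers of cells or in RNA per cell underlie any of these levels cannot be told apart in bulk libraries.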

How the data were processed

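RNA-seq of 12 libraries was analysed from 1 table. Per the study's methods, poly(A) RNA was sequenced from both ends, trimmed with Cutadapt, mapped to GRCm38 with HISAT2 and quantified with StringTie and Ballgown. The authors deposited TPM values and unnormalized estimated counts per gene, and the counts were used as whole numbers. Depths and the floor cover counting error only.

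The members, roles and lists were chosen with earlier results of these data known. Genes that reached 0.5 TPM in 3 or more libraries were fitted together with edgeR 4.0.16 (quasi-likelihood, TMM scaling, R 4.3.3), 4 group means and Benjamini-Hochberg adjustment over all 16127 genes. Adjusted p-values are from this test unless another tool is named. TPM levels were compared by two-sided exact permutation tests. Members with a call are given in every library, others by group means. Alternatives were DESeq2 1.42.0, limma 3.58.1 on log2(TPM + 0.1, 0.5 or 1), other scalings and filters, counts divided by 4, a replicate block, the libraries of a comparison alone and leaving out each library. The procedure was tested on simulated counts. Plots were drawn with matplotlib 3.10.9 in Python 3.11.15. No protein sequences are shown here, and 1 promoter motif is not reported here.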

Additional observations from a re-analysis of the deposited data

Results flagged for a closer look

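For 3 members the response to IFNγ/LPS differed between the lines by the test of the difference itself (edgeR, adjusted p under 0.05), in each case with the larger response in STHdhQ111 cells. Tnfrsf10b had a log2 difference of 1.36 and Tnfsf9 of 1.32. Fas had a log2 difference of 0.82, under the 2-fold size used for a call. The 2 members called are 6.06% of those tested, against 3.52% of all genes called in that direction. With a library left out, the Tnfrsf10b call was kept in 6 of 12 fits and the Tnfsf9 call in 2 of 12. DESeq2 called 3 members (Tnfrsf19, Tnfrsf9 and Tnfrsf21) in the other direction. No share over all genes was worked out at the adjusted p alone.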

How the results depend on the processing

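Of the 39 calls of members in single comparisons, 25 held under all alternatives in which the gene was tested, 32 held whichever library was left out, and no called log2 fold change turned its direction. The fit of a comparison's own libraries was not run for the interaction. In Q7-T vs. Q7-C the number of members called was 4 and fell to 2 with limma on log2(TPM + 1), and was 4 to 5 with a library left out. In Q111-T vs. Q111-C it was 7, with 11 from counts divided by 4 and 12 from the libraries of the comparison alone, and 6 to 10 with a library left out. In Q111-C vs. Q7-C it was 11 (9 to 12 with a library left out) and in Q111-T vs. Q7-T 15 (13 to 16). The interaction gave 2 calls, but 7 with DESeq2, 4 with limma on log2(TPM + 0.5) and on log2(TPM + 1), 1 with upper-quartile factors, 1 without the filter on low values, and 0 to 2 with a library left out. The cause of these differences was not tested. Cd40, at most 1.04 TPM in any library, was not tested under the filter of 1 TPM in 3 libraries and was called in both lines under each other alternative except log2(TPM + 1), and without the filter Tnfsf4 was called in Q111-T vs. Q7-T.

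Replicate numbers do not pair the samples. The correlations of deviations of same-numbered libraries ran from -0.58 to 0.45, 7 of 18 were over 0.1, and 2 of 12 libraries correlated best with their own number. With the replicate number as a block, 4, 7, 10 and 15 members were called in the same order of comparisons, and 1 in the interaction.

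Genes with few read pairs are limited by depth. For Tnf, Fasl, Ltb, Tnfsf4 and Tnfsf8, at least 1 group of each comparison was under the floor of 12 counts. Tnfsf13b was over it in all groups, Lta in both STHdhQ7 groups and Tnfsf18 in both STHdhQ111 groups.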

Other observations

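Ligands and their receptors can be set side by side. Tnfrsf1a and Tnfrsf1b were both present in all 12 libraries, while Tnf was detected in Q111-T alone. Fas was high after treatment in both lines, while Fasl was over the floor in a single library. Ltbr was high in STHdhQ111 cells, while Ltb did not exceed 0.271 TPM in any library.

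Several members lie close together on GRCm38, and neighbours did not share their calls in each case. On chromosome 4, Tnfrsf18 was called higher in STHdhQ111 cells and Tnfrsf4, 9.6 kb away, was not called. On the same chromosome Tnfrsf1b was called in all 4 comparisons between groups, while Tnfrsf8, 20.3 kb away, did not reach the filter and could not be called. Tnfrsf8 was at 0 TPM in Q111-C and at 0.117 to 0.166 TPM in Q111-T, so it gives no contrast of calls. On chromosome 7, Tnfrsf22 was called lower in STHdhQ111 than in STHdhQ7 cells in both conditions, and Tnfrsf26, 6.1 kb away, was called higher in Q111-T against Q7-T alone. That Tnfrsf26 call was kept in 6 of 12 fits with a library left out.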
